A study of Mus musculus with 5 samples.

Results

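CC chemokine RNA was examined in the RNA-seq of Sema3G-stimulated BMMs. The 10 genes Ccl2, Ccl3, Ccl4, Ccl5, Ccl6, Ccl7, Ccl9, Ccl12, Ccl22 and Ccl24 were taken by symbol from a table of 24419 gene rows, and all 10 had a row. BMMs are macrophages grown from the bone marrow of C57BL/6 mice (C57BL6/J in the series' design text) with M-CSF at 50 ng/ml for 5 days. All 5 samples were activated with LPS at 100 ng/ml, and then 2 samples received PBS and 3 received recombinant Sema3G, a secreted semaphorin, at 100 ng/ml for 18 h. No sample without LPS was analysed here, so the response of these genes to LPS itself cannot be read from the comparison. The labels do not say whether the samples of a group came from separate cultures or animals, and p values then measure only the spread between these samples.

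CC chemokines are small secreted proteins that attract leukocytes through G protein-coupled receptors, and many bind more than 1 receptor. In macrophages activated through Toll-like receptors, several of them are known as early response genes, and others are made without a stimulus. Ccl9 and Ccl6 are rodent chemokines of myeloid cells that bind Ccr1. Ccl3, Ccl4 and Ccl5 draw in monocytes and T cells, and Ccl3 and Ccl5 bind Ccr1 as well. Ccl2, Ccl7 and Ccl12 recruit monocytes through Ccr2, Ccl22 acts on T cells through Ccr4, and Ccl24 is an eosinophil attractant that binds Ccr3.

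The genes fell into a few loci of the mm10 (GRCm38) genome in GENCODE M21, and 8 of the 10 lay on chromosome 11. Ccl2 (chr11:82035571-82037453), Ccl7 (chr11:82045712-82047525) and Ccl12 (chr11:82101845-82103400) were on the plus strand of one cluster. Ccl5 (chr11:83525778-83530518), Ccl9 (chr11:83572919-83578636), Ccl6 (chr11:83587882-83593087) and Ccl3 (chr11:83647844-83649355) were on the minus strand of the other, with Ccl4 (chr11:83662584-83664683) on its plus strand. Ccl9 and Ccl6 were 9245 bases apart with no other coding gene between them. Ccl24 (chr5:135569937-135573049, minus strand) and Ccl22 (chr8:94745590-94751699, plus strand) lay elsewhere.

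RefSeq promoters of GRCm38.p6 were at hand for 5 of the 10 genes, namely Ccl3, Ccl6, Ccl9, Ccl12 and Ccl22. The 250 bases before the start site of Ccl9 and Ccl6, the neighbours with the most RNA, and of Ccl12, a gene of chromosome 11 with almost none, are given 5′ to 3′ on the strand of the gene. They lie at chr11:83578637-83578886 (minus), chr11:83593088-83593337 (minus) and chr11:82101595-82101844 (plus). Capitals mark matches on either strand to TATAAA (the TATA box), AGGAAG (a form of ETS site), TGANTCA (AP-1) and the NF-kB motif. Adjoining or overlapping matches run together, and other forms of the ETS site were not searched.
Ccl9: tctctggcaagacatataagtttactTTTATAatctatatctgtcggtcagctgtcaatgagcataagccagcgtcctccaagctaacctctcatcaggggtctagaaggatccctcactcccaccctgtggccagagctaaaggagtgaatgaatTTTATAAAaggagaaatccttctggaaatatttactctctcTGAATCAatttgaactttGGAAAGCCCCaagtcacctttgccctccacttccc
Ccl6: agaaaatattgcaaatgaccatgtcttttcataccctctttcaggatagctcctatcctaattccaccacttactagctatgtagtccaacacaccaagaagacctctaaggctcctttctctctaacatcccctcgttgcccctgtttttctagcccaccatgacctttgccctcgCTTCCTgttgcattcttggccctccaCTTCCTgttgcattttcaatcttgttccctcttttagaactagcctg
Ccl12: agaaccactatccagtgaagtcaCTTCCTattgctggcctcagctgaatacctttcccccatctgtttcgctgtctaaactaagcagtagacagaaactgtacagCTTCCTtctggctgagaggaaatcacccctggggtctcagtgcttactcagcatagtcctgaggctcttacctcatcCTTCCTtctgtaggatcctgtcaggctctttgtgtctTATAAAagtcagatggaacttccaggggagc

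The 3 promoters held different sets of these letters. The Ccl9 promoter had 3 TATA box matches, 1 AP-1 match that began 53 bases upstream of the start site and 1 NF-kB match that began 35 bases upstream. The Ccl6 promoter had 2 AGGAAG matches and no match to the TATA box, AP-1 or NF-kB motif. The Ccl12 promoter had 3 AGGAAG matches and a TATA box match 31 bases upstream. No match was found in the Ccl3 promoter, and the Ccl22 promoter had 1 AGGAAG match. Among 32851 promoters of the same length, 12.4% held a TATA box match, 29.5% an AGGAAG match, 6.75% an AP-1 match and 7.25% an NF-kB match. The letters TTGCNNAA (C/EBP, 9.56% of promoters) and an interferon response element motif (2.98%) were searched too and occurred in none of the 5. Matches are letters in a window and show no binding.

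The Ccl9 and Ccl6 promoters shared the stretch GCCCTCCACTTCC, which began 14 bases upstream of the start site in Ccl9 and 55 bases upstream in Ccl6. It was the longest identical stretch among the 10 pairs of the 5 promoters, the next longest being 10 bases, and it was found in 5 of the 32851 promoters. Aligned over their length, the pairs were 47.7% to 53.8% identical.

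The values were CPM, the unique molecular identifiers (UMIs) counted for a gene, scaled by the total of the library. Each UMI stands for 1 molecule read from its 3′ end, so CPM was compared between genes without a correction for length. The library totals ranged from 1798469 to 2215855 UMIs, and 3 UMIs corresponded to 1.35 to 1.67 CPM. UMIs of Rn45s, which encodes the precursor of ribosomal RNA, made up 1.01% and 3.19% of the PBS libraries and 6.31% to 7.88% of the Sema3G libraries. Of 8 macrophage markers, 7 were abundant and Mertk was near 0, and their sum was 9761 to 12570 CPM with PBS and 8860 to 9518 CPM with Sema3G. Csf1r and Adgre1 were lower in every Sema3G library than in both PBS libraries, Itgam and Mertk (2 and 0 UMIs against 5, 4 and 5) were higher, and the other 4 overlapped, where 38.4% of all genes tested did not overlap. All markers of B cells and eosinophils were at 0, and the sums for T and NK cells, dendritic cells, and mast cells and basophils stayed at or below 2.78 CPM. Neutrophil markers summed to 116 to 169 CPM with PBS and 103 to 132 CPM with Sema3G, almost all of it S100a8, with Ngp and Elane at 0. Stromal markers summed to 21.9 to 49.4 CPM with PBS and 19.0 to 39.5 CPM with Sema3G. In bulk RNA, fewer cells of a type and less RNA per cell cannot be told apart.

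Ccl9 was by far the most abundant CC chemokine, ranking 49 among all gene rows by mean CPM. It had 1032 and 1614 CPM in PBS replicates 1 and 2, and 928, 1140 and 974 CPM in Sema3G replicates 1 to 3. PBS replicate 2 stood above the other 4 libraries, and PBS replicate 1 lay within the range of the Sema3G libraries. The means were 1323 ± 411 CPM (SD, n = 2) and 1014 ± 111 CPM (SD, n = 3). The log2 fold change was -0.35 with a 95% interval of -0.84 to 0.13 and an adjusted p of 0.382 from limma on log2(CPM + 1). It was -0.03 without PBS replicate 2 and -0.68 without PBS replicate 1 (limma adjusted p = 0.197).

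Ccl6, the neighbour of Ccl9, was the steadiest of the abundant members. It had 466 and 371 CPM with PBS and 398, 350 and 403 CPM with Sema3G. Its highest library was 1.33 times its lowest, and the groups overlapped. The means were 419 ± 67.5 CPM (SD, n = 2) and 383 ± 29.3 CPM (SD, n = 3), and limma gave a log2 fold change of -0.12 (95% interval -0.52 to 0.28, adjusted p = 0.735). The sign turned when CPM was rescaled, to 0.09 with TMM factors and to 0.17 when the total was taken from the listed genes alone and without Rn45s. On the opposite strand E230016K23Rik, a noncoding transcript, spans Ccl6, but it had 1 UMI in all 5 libraries together.

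Ccl5, also known as RANTES, was the most variable of the abundant members. It had 520 and 210 CPM with PBS, and 381, 248 and 139 CPM with Sema3G. PBS replicate 1 was the highest library and Sema3G replicate 3 the lowest, and PBS replicate 2 was lower than 2 of the 3 Sema3G libraries. The means were 365 ± 220 CPM (SD, n = 2) and 256 ± 121 CPM (SD, n = 3), and the log2 fold change was -0.48 (95% interval -1.20 to 0.24, adjusted p = 0.419 from limma). This estimate turned on single libraries, being 0.17 without PBS replicate 1, -1.14 without PBS replicate 2 (limma adjusted p = 0.0653), -0.83 without Sema3G replicate 1 and -0.11 without Sema3G replicate 3.

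The differences in Ccl5 within a group were far beyond counting error. PBS replicate 1 was 2.48 times PBS replicate 2, with an exact binomial 95% interval of 2.20 to 2.80 from 947 and 392 UMIs. Sema3G replicate 1 was 2.74 times Sema3G replicate 3 (interval 2.39 to 3.14). Among 1052 genes that averaged 100 CPM or more, 19 (1.81%) lay as far apart between the PBS libraries and 6 (0.570%) between these Sema3G libraries, Ccl5 included. Sema3G replicates 2 and 3 were the most alike of all pairs of libraries, yet Ccl5 differed 1.78-fold between them (interval 1.54 to 2.05), as far as in 3 of the 1052 genes, itself included. For Ccl9 the PBS libraries differed 1.56-fold, as far as in 112 of these genes, and for Ccl6 1.26-fold. The intervals cover counting error only.

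**Figure D1:**
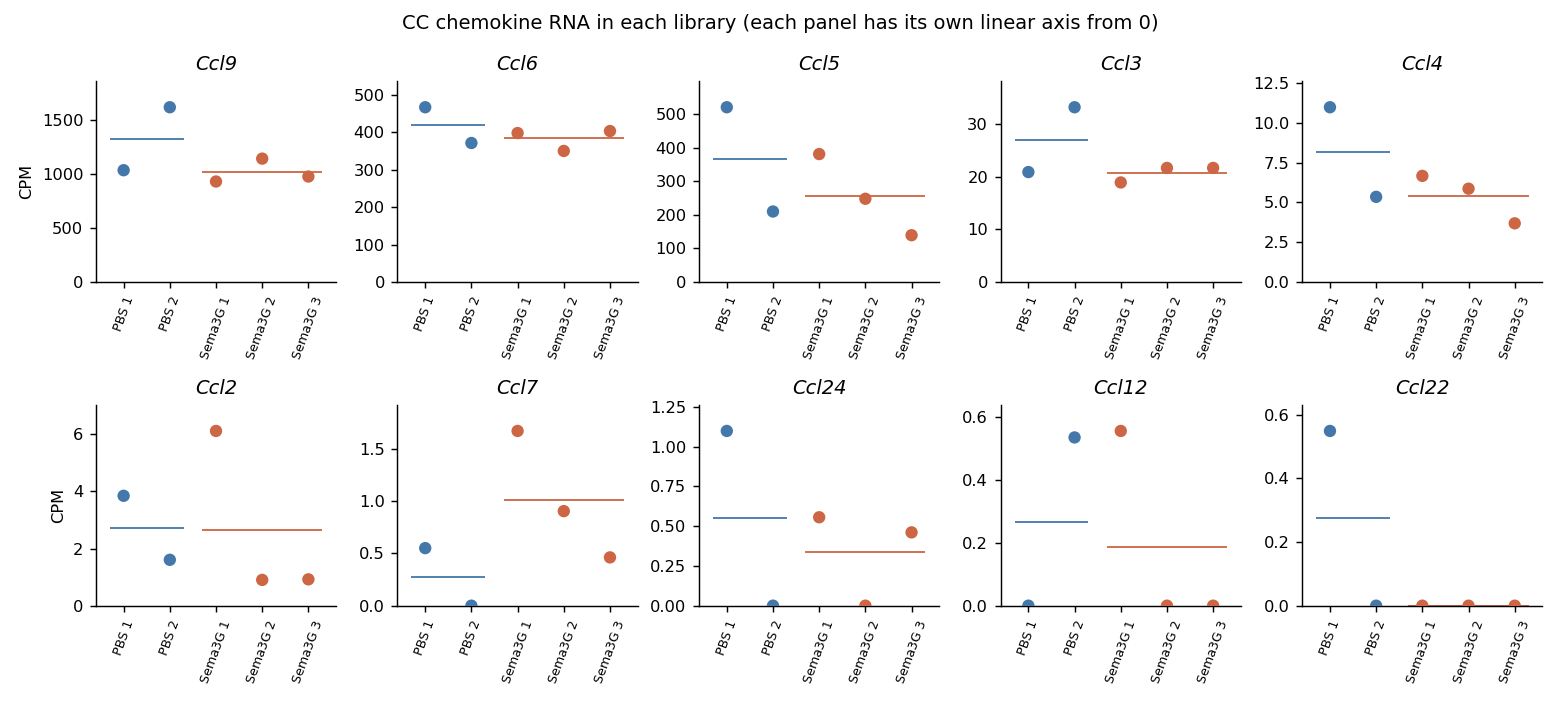
CPM of each of the 10 CC chemokines (vertical axis, linear from 0, its own scale in each panel) in the 2 PBS libraries (blue) and the 3 Sema3G libraries (orange). Lines are group means, and in every panel the groups overlap. Ccl5 runs from 139 to 520 CPM, while Ccl12 and Ccl22 never reach 1 CPM.

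Ccl3 and Ccl4, the macrophage inflammatory proteins, were much lower. Ccl3 had 20.9 and 33.2 CPM with PBS and 18.9, 21.7 and 21.7 CPM with Sema3G. As for Ccl9, PBS replicate 2 was the highest library, and PBS replicate 1 lay among the Sema3G libraries. Its log2 fold change was -0.33 (95% interval -0.90 to 0.23, adjusted p = 0.474 from limma), and leaving out PBS replicate 1 or 2 made it -0.66 or -0.011. The UMIs of Ccl4 numbered 20 and 10 with PBS and 12, 13 and 8 with Sema3G, or 11.0 and 5.35 CPM against 6.67, 5.87 and 3.69 CPM. As for Ccl5, PBS replicate 1 was the highest library and Sema3G replicate 3 the lowest, but for Ccl4 this order rests on few UMIs. PBS replicate 1 was 2.05 times PBS replicate 2, with an exact binomial 95% interval of 0.917 to 4.91. The log2 fold change of Ccl4 was -0.48 (95% interval -1.34 to 0.39, adjusted p = 0.511 from limma). Leaving out PBS replicate 1 or 2 made it -0.018 or -0.93. The RefSeq model of Ccl4 overlaps Ccl3 on the opposite strand. RefSeq also places Gm32650, which had no row among the deposited genes, over part of Ccl5. The strand setting of the counting is not stated in the sources, so reads in these overlaps are uncertain.

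**Figure D2:**
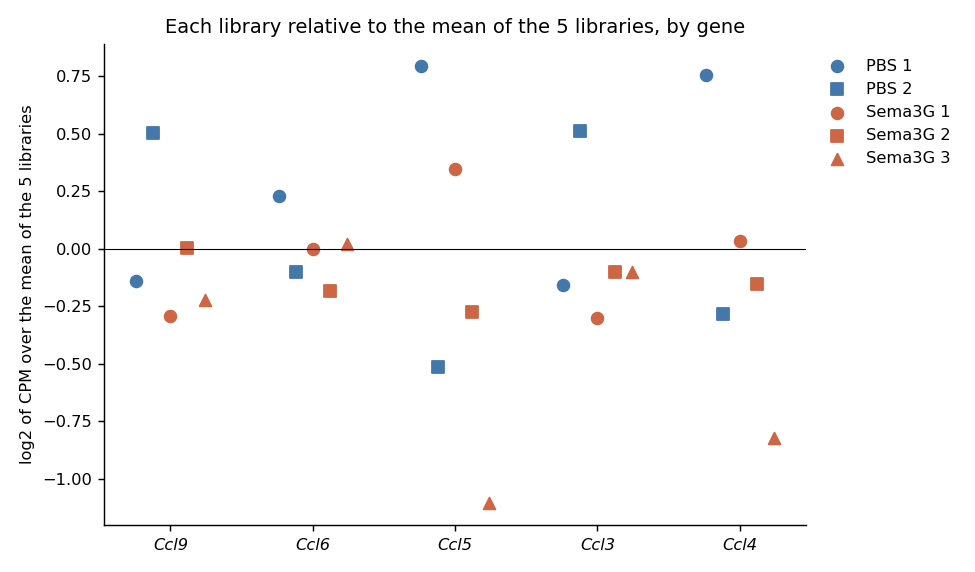
Each library's CPM over the mean of the 5 libraries, on a log2 scale (vertical axis), for the 5 most abundant CC chemokines. PBS libraries are blue and Sema3G libraries orange, with a symbol for each replicate. PBS replicate 2 (blue square) is highest for Ccl9 and Ccl3, and PBS replicate 1 (blue circle) for Ccl6, Ccl5 and Ccl4.

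The Ccr2 ligands Ccl2, Ccl7 and Ccl12, which recruit monocytes, had the lowest mean CPM of the 8 genes on chromosome 11 in these LPS-stimulated BMMs. Ccl2, also known as MCP1, was counted 7 and 3 times with PBS and 11, 2 and 2 times with Sema3G, or 3.85 and 1.61 CPM against 6.12, 0.903 and 0.922 CPM. Sema3G replicate 1 held most of the UMIs of its group, and it was above both PBS libraries as well. The log2 fold change was -0.26, and its 95% interval of -1.52 to 0.996 includes changes of about 2-fold in either direction (adjusted p = 0.827 from limma). Its sign was not stable, being 0.07 in edgeR's quasi-likelihood test and 0.19 without PBS replicate 1. For Ccl7 the PBS libraries held 1 and 0 UMIs and the Sema3G libraries 3, 2 and 1. Ccl12 had 0 and 1 UMIs against 1, 0 and 0. Neither averaged 1 CPM, and with no filter on low values limma put the log2 fold change of Ccl7 at 0.65 (95% interval -0.23 to 1.53, adjusted p = 0.434) and that of Ccl12 at -0.10 (adjusted p = 0.898). GENCODE places the gene model Gm17268 over Ccl2 on the opposite strand, and it had no row among the deposited genes.

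Ccl24 and Ccl22 were also rare. For Ccl24 the PBS libraries held 2 and 0 UMIs and the Sema3G libraries 1, 0 and 1, and Ccl22 had 1 UMI in PBS replicate 1 and 0 in the other 4 libraries. With no filter their limma adjusted p values were 0.864 and 0.654. A count of 0 in a library allows a level of up to 1.35 to 1.67 CPM.

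By mean CPM over the 5 libraries the order was Ccl9, Ccl6, Ccl5, Ccl3, Ccl4, Ccl2, Ccl7, Ccl24, Ccl12 and Ccl22. Ccl9 was 2.86 times Ccl6, and their ranges were apart. Ccl6 and Ccl5 overlapped, with Ccl6 higher in 4 of 5 libraries. Ccl5 was 12.9 times Ccl3, and Ccl3 was 3.57 times Ccl4, both with ranges apart. Ccl4 was higher than Ccl2 in all 5 libraries although their ranges overlapped, and the ranges of all later neighbours overlapped too.

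The CC chemokine RNA was almost all from Ccl9, Ccl6 and Ccl5, which made up 98.0% to 98.3% of the summed CPM of the 10 genes in every library. The share of Ccl9 ran from 50.2% in PBS replicate 1 to 72.2% in PBS replicate 2, and that of Ccl5 from 9.02% in Sema3G replicate 3 to 25.3% in PBS replicate 1. Ccl6 took 16.6% to 26.1% and Ccl3 1.01% to 1.48%.

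The summed level was lower with Sema3G on the deposited scale. It was 2057 and 2236 CPM with PBS and 1741, 1766 and 1543 CPM with Sema3G. The groups did not overlap, as for 38.4% of all genes tested. The means were 2146 ± 126 CPM (SD, n = 2) and 1684 ± 122 CPM (SD, n = 3). On this scale the median log2 fold change of all genes tested was -0.22. With totals taken from the listed genes alone, Rn45s left out, the sums were 2686 and 3089 CPM with PBS and 2677, 2958 and 2661 CPM with Sema3G, and the groups overlapped, as they did with TMM factors. The ratio of the Sema3G mean to the PBS mean was 0.784 on the deposited scale, 0.901 with TMM factors and 0.958 with listed genes but Rn45s as the total. Both the share of Rn45s and the share of UMIs on listed genes, 77.6% and 75.6% with PBS and 71.3%, 67.1% and 65.9% with Sema3G, move with this result, and their part in it was not tested beyond these rescalings. The genes were chosen with earlier results of these data known, and no p value was computed for the sum.

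**Figure D3:**
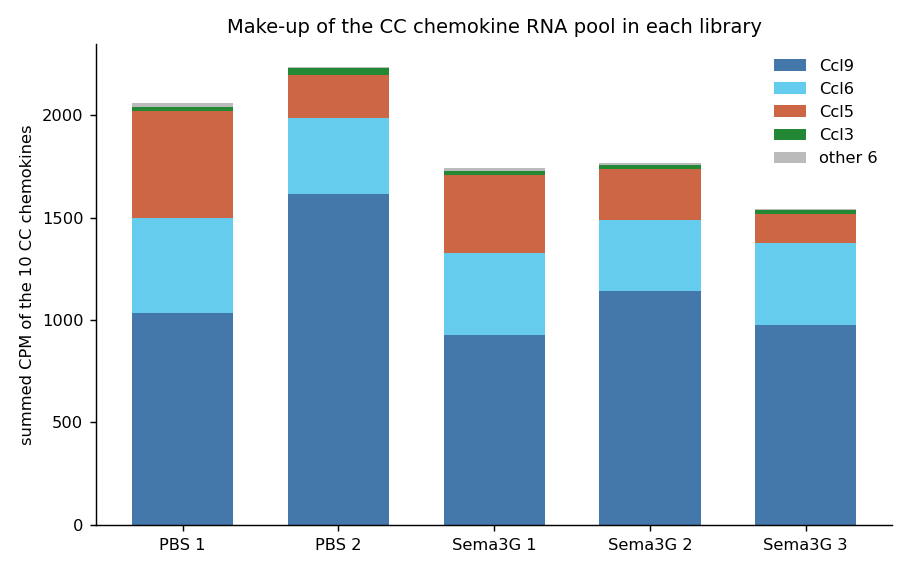
Summed CPM of the 10 CC chemokines in each library (vertical axis, linear from 0), split into Ccl9, Ccl6, Ccl5, Ccl3 and the other 6. The PBS libraries reach 2057 and 2236 CPM and the Sema3G libraries 1543 to 1766 CPM. PBS replicate 1 has the smallest Ccl9 share and the largest Ccl5 share.

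Sema3G stimulation gave no change in any CC chemokine that passed the test. Of the 10 genes, 6 averaged 1 CPM or more and were tested, and 0 were called by limma at an adjusted p below 0.05, where 1.80% of all 10088 genes tested were. At an unadjusted p below 0.05 the count was 0 of 6 as well, against 21.1% of all genes. edgeR's quasi-likelihood test, DESeq2 and limma-voom on the recovered UMI counts also called 0 of them, where they called 3.01%, 2.42% and 2.56% of all genes. DESeq2 gave Ccl2 no adjusted p. The groups overlapped for all 6 members, whereas 38.4% of all genes tested had groups that did not overlap.

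The 6 log2 fold changes were all below 0 on the deposited scale, with a median of -0.34, but the median of all genes tested was -0.22. Relative to that median 5 were below 0 and Ccl6 was above it, and the median of the 6 was -0.12. With TMM factors, or with listed genes but Rn45s as the total, Ccl6 was above 0 itself. The 95% interval ran from 0.559-fold to 1.10-fold for Ccl9 and from 0.434-fold to 1.18-fold for Ccl5. These limits rest on single libraries. For Ccl9 they were 0.437 and 0.897 when PBS replicate 1 was left out, and 0.686 and 1.39 when PBS replicate 2 was. For Ccl5 they were 0.708 and 1.78 in the first case and 0.286 and 0.723 in the second.

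Receptors of these chemokines and other CC ligands were looked up as the rest of the pathway, 25 genes in all. Of these, 6 were tested and 0 were called by limma, against 1.80% of all genes, and 0 had an unadjusted p below 0.05, against 21.1%.

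Ccr1, the receptor of Ccl9 and Ccl6, had 56.6 and 56.7 CPM with PBS and 48.9, 66.3 and 51.2 CPM with Sema3G. The PBS libraries lay within the Sema3G range, and limma put the log2 fold change at -0.04 (adjusted p = 0.927). Ccr2, the receptor of Ccl2, Ccl7 and Ccl12, had 4.94 and 3.21 CPM with PBS and 2.78, 4.96 and 5.53 CPM with Sema3G. Ccr3, the receptor of Ccl24, had 3.30 and 3.75 CPM against 7.78, 3.61 and 5.07 CPM. Both overlapped between the groups. Ccr4, the receptor of Ccl22, had 1 UMI over the 5 libraries together.

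Ccrl2, a receptor-like protein that binds chemerin, was the one of the 6 whose groups did not overlap, as for 38.4% of all genes tested. It had 14.8 and 17.7 CPM with PBS and 10.01, 8.57 and 11.5 CPM with Sema3G, so that every Sema3G library was below both PBS libraries. Its log2 fold change was -0.65 (95% interval -1.30 to 0.004), with an unadjusted p of 0.0513 and an adjusted p of 0.240 from limma. With listed genes but Rn45s as the total this was -0.39 (adjusted p = 0.618 from limma).

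Among the other ligands, Ccl25, a ligand of Ccr9, was counted 4 and 6 times with PBS and 1, 2 and 5 times with Sema3G, and Ccl27a, a ligand of Ccr10, 2 and 5 times against 6, 5 and 4. Both rest on few counts and overlapped between the groups. The ligands Ccl1, Ccl11, Ccl17, Ccl19, Ccl20, Ccl21a, Ccl26 and Ccl28 and the receptors Ccr8, Ccr10, Ccr1l1, Ackr1 and Ackr2 were at 0 in all 5 libraries.

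**Figure D4:**
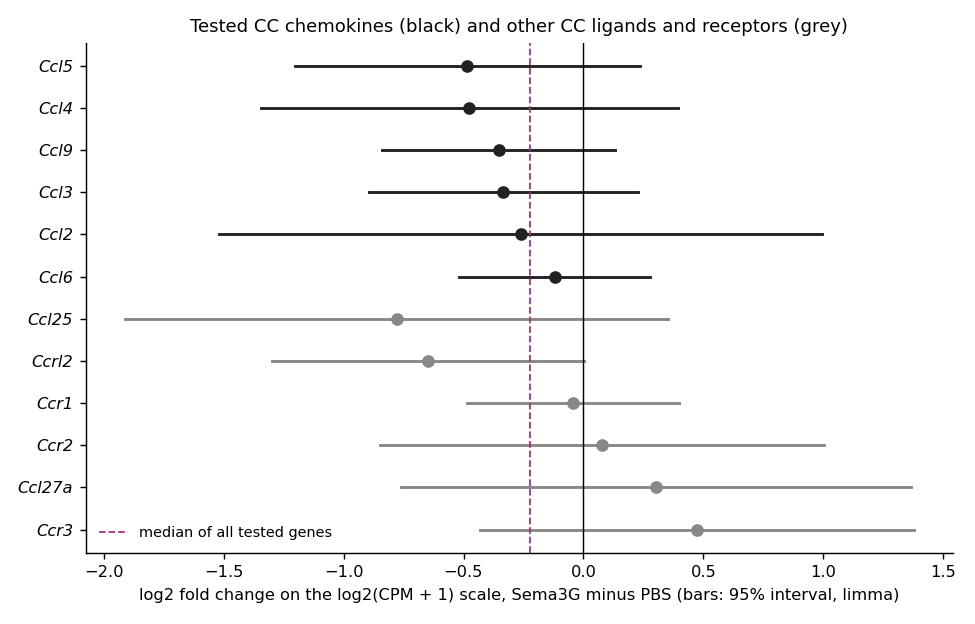
Log2 fold change of Sema3G against PBS on the log2(CPM + 1) scale (horizontal axis) for the 6 tested CC chemokines (black) and the 6 other tested CC ligands and receptors (grey). Points are limma estimates, bars their 95% intervals and the dashed line the median of all genes tested, at -0.22. All bars cross 0, that of Ccrl2 only just, at 0.004.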

How the data were processed

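RNA from 2 PBS and 3 Sema3G samples of LPS-stimulated BMMs was used. The authors made 3′ UMI libraries (QuantSeq), mapped the reads to mm10, counted UMIs with Strand NGS and normalized with EdgeR (version 3.12 in the submitters' processing notes). Which annotation and filter were used is not stated in these sources. Deposited were CPM, together with p and q values and rankings of their own comparison, which were not used. UMI counts could be recovered, since within each library 100% of the deposited CPM values came within 0.01 of a whole count. The UMIs on listed genes were 1283029 to 1487137 per library. In 27 rows a spreadsheet had made the symbol a date.

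A limma model with an intensity trend (version 3.58.1 in R 4.3.3) was run on log2(CPM + 1) for the 10088 genes that averaged 1 CPM or more. The p values were adjusted over all of them by the Benjamini-Hochberg method. The pseudocount understates the changes of low genes. Alternatives changed the pseudocount (0.1, 5), the filter (none, 5 CPM), the scaling and the test (edgeR 4.0.16, DESeq2 1.42.0 and limma-voom on recovered counts), added the replicate block or left out each library. On simulated data for this comparison, with 200 genes of 10125 changed 4-fold, limma recovered 95% with 12 false calls. The simulation gave all genes the same spread and changed only genes of 5 CPM or more. It therefore does not show how often smaller changes, or changes in genes as variable as Ccl5, would be called. Chi-square over degrees of freedom was 1.77 between Sema3G replicates 2 and 3 and 6.57 to 29.6 for the other pairs. All 5 were counted separately because the labels name 5 samples, and these values do not show that replicates 2 and 3 are separate cultures.

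The members and lists were chosen with earlier results of these data known. Named were all members, and the other CC ligands and receptors with a mean of at least 1 CPM or past the adjusted p. Those named with fewer counts or at 0 were named after their values were seen. Gene models came from GENCODE M21 and promoters from RefSeq (GRCm38.p6). No stretch of 75 bases of a member's longest transcript occurred in a transcript of another gene. A further gene of the pathway is not reported here.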

Additional observations from a re-analysis of the deposited data

How the results depend on the processing

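The count of CC chemokines called, and of other CC ligands and receptors called, was 0 in all 15 alternatives. At an unadjusted p below 0.05, leaving out PBS replicate 1 gave Ccl9 and Ccl3, against 15.2% of all genes, and leaving out PBS replicate 2 or Sema3G replicate 1 gave Ccl5, against 22.6% and 28.3%. Ccrl2 was below it with a pseudocount of 0.1, at a mean of 5 CPM and with the replicate block, against 20.4%, 24.2% and 21.2%. The adjusted p values of the 6 tested genes ran from 0.0653 to 0.991 under the alternatives. Ccl9, Ccl3 and Ccl4 stayed below 0, but came as near to it as -0.03, -0.011 and -0.018 when 1 PBS library was left out. With TMM factors Ccl9, Ccl5, Ccl3 and Ccl4 were -0.15, -0.28, -0.14 and -0.30, and without Rn45s and unlisted UMIs -0.063, -0.19, -0.055 and -0.24. Ccl6 was 0.0859 with TMM factors, 0.17 with Rn45s and unlisted UMIs left out of the total, 0.0873 in edgeR's quasi-likelihood test, 0.0946 in DESeq2 and 0.0858 in limma-voom, and ranged from -0.29 to 0.0445 when 1 library was left out. Ccl5 ranged from -1.14 to 0.17 and Ccl2 from -0.89 to 0.19 when 1 library was left out. Ccl2 was 0.0749 in edgeR's quasi-likelihood test and 0.11 in DESeq2, which gave it no adjusted p, and it was not tested at a mean of 5 CPM.

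The ratio of summed CPM was 0.784, and 0.901 with TMM factors and 0.958 without Rn45s and unlisted UMIs, and it was between 0.753 and 0.818 when 1 library was left out. All these alternatives for the sum were chosen after seeing the data. Calls over all genes were 182, with 160 higher and 22 lower. They were 108 with no filter, 328 with TMM factors (325 higher, 3 lower), 495 without Rn45s and unlisted UMIs (493 higher, 2 lower) and 304 in edgeR's quasi-likelihood test, and 99 without PBS replicate 1, 217 without PBS replicate 2, 710 without Sema3G replicate 1, 27 without Sema3G replicate 2 and 32 without Sema3G replicate 3. Without Sema3G replicate 1, 270 of the calls were higher and 440 lower. The replicate block gave 573 (298 higher, 275 lower) and a Ccl2 log2 fold change of 0.0502, with no member called. Its fold changes equal those without Sema3G replicate 3, the library with no partner, so it rests on the same 4 libraries. The replicate numbers of the labels are shared by 2 pairs of libraries, whose deviations from the group means correlated at 0.173 and 0.111. PBS replicate 2 and Sema3G replicate 3, which share no number, correlated at 0.0973. These values do not show pairing, and nothing in the labels says that a number marks a shared culture. The cause of these changes was not tested.

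Ccl7, Ccl12, Ccl22 and Ccl24, with mean levels of 0.716, 0.218, 0.110 and 0.423 CPM, were tested only with no filter, and 2 PBS libraries leave the spread of Ccl9 and Ccl5 poorly known.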
